A study of Rattus norvegicus with 16 samples.

Results

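The genes described here encode the subunits of oxidative phosphorylation, the respiratory chain complexes I to IV and the ATP synthase (complex V), in the thoracic aorta of rats of 4 ages. A probe set was a member if the platform annotation gave it 1 gene symbol starting with Nduf, Sdh, Uqcr, Cox4, Cox5, Cox6, Cox7, Cox8 or Atp5, or the symbol Cyc1 or Cycs, with Cox8b and the Sdhaf genes left out. This rule uses names only and no measured value, although the members were chosen with earlier results of these data known. It found 54 of the 4736 genes named on the array, with 99 of the 8799 probe sets, and 90 of the 99, for 53 genes, were bright enough to be tested.

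Arrays profiled RNA of the descending thoracic aorta at 3, 6, 15 and 28 months, with 4 rats per age and 1 rat per array, to follow the vessel through adult life and ageing. The rats differed in age alone as far as the labels say. The array records also carry a note of 10 ug cRNA, whose meaning they do not state, on 4 arrays, replicates 2 and 4 at 15 months and replicates 3 and 4 at 28 months, and on none at 3 or 6 months. The sources used here give neither strain nor sex, nor whether fat around the vessel was removed. Each array is one piece of whole tissue with all of its cell types, and each replicate number from 1 to 4 held 1 array of every age, which shared the hybridisation day, chip lot and station in the array records.

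Oxidative phosphorylation takes electrons from NADH at complex I and from succinate at complex II, passes them through ubiquinone, complex III and cytochrome c to oxygen at complex IV, and uses the proton gradient built up on the way to make ATP at complex V. Most subunits are made from nuclear genes and a small core from mitochondrial DNA. Smooth muscle cells of large arteries rely much on glycolysis, whereas heart muscle and brown fat hold dense mitochondria and large amounts of these transcripts.

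Complex I had 24 genes on the array with 40 probe sets, of which 36 probe sets were tested. Complex II was represented by 1 gene, Sdha, with 1 probe set. Complex III had 4 genes with 7 probe sets, all tested. Complex IV had 12 genes with 25 probe sets, of which 24 were tested, and complex V had 9 genes with 13 probe sets, all tested. The rule also took in Atp5if1, the inhibitor of the ATP synthase, with 4 probe sets, the complex I assembly factor Ndufaf3 with 3, the Ndufa4 paralogue Ndufa4l2 with 5, and the pseudogene Cox6c-ps1 with 1. The 9 members too dim to be tested were 1 probe set each of Ndufab1, Ndufb11, Ndufs4, Ndufs8, Cox6a2, Ndufa4l2 and Cox6c-ps1 and both D13122_i_at and M35300_f_at of Atp5if1. A further 7 probe sets, for Atp5mc1, Atp5mc2, Cox7a2, Ndufb4, Ndufs5, Cox5a and Cycs, carried the symbols of several genes and were not used, so cytochrome c has no value here. Of the 13 mitochondrially encoded chains, 0 had a probe set, so the results cover nuclear genes only.

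Values are log2(signal + 16). Mean values of the tested members lay between 7.59 and 15.73, against a filter limit of 7.31. Their median was 12.30, against 9.37 over all probe sets tested, so the shares of all probe sets given below are those of mostly dimmer probe sets. Probe sets differ in how well they capture their transcript, so these values give no order among genes, and all comparisons below are of the same probe set between ages.

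The sequence just before and after the members' start sites was looked at for motifs of factors known to act on nuclear respiratory chain genes. The members' values went up and down together from array to array, and also with the fat cell markers described below. Whether the motifs have a part in this was not tested. A promoter of 300 bases, from 250 before to 50 after the start, was found in the RefSeq table of the rat (build GRCr8) for 45 of the 54 genes, and 25 of them held at least 1 of 6 motifs, searched on both strands. The 9 genes without an entry were Atp5pd, Cox4i2, Cox6a1, Cox6c, Cox6c-ps1, Cyc1, Ndufa8, Ndufb9 and Uqcr11. Of the 6 motifs, 5 were held by a larger share of the member promoters than of all promoters, and the SP1 motif by a smaller one. AAGATGGC, the motif of YY1, was in 11 of the 45 promoters (24.4%) and in 3.17% of all 33469 promoters of this length. The ETS family motif CCGGAAG was in 9 (20%), against 8.75% of all. The motif of NRF1, the nuclear respiratory factor (GCGCA, any base, then GCGC), was in 6 (13.3%), against 4.25% of all. The ERR family motif AAGGTCA was in 5 (11.1%), against 4.61%, the CREB motif TGACGTCA in 2 (4.44%), against 1.83%, and the SP1 motif GGGGCGGG in 5 (11.1%), against 14.4%. No 2 motifs overlapped in these promoters. A match is a description of the letters in the window and not a binding site. The shares are over all RefSeq promoters. Over the 21842 promoters of coding genes the share was 3.68% for YY1, 10.7% for ETS, 5.66% for NRF1, 3.78% for ERR, 2.10% for CREB and 18.9% for SP1.

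Of the promoters below, the first 4 were chosen to show 5 of the 6 motifs, all but SP1, in genes of complexes I, IV and V. Most of their probe sets were lower at 28 months, although Cox4i1 was not on its brightest one and Ndufs6 passed no test. The promoter of Atp5if1 is shown because its tested probe sets went the other way and the window held 0 of the motifs. A window without any of the motifs was found for 20 of the 45 genes. Among them were Atp5f1b, Uqcrfs1 and Ndufab1, all lower at 28 months. Atp5pf, which was not lower, held ETS and YY1 motifs. Whether the motifs go with the direction of change was not tested. Capitals mark the motifs, in either orientation, 5′ to 3′ on the strand of the gene. Ndufs6 lies on the plus strand at chr1:31797150-31797449 and holds NRF1, YY1 and ERR motifs. Cox4i1, on the plus strand at chr19:65630133-65630432, holds 2 ETS motifs. Cox8a, on the minus strand at chr1:213833574-213833873, holds CREB, ETS, YY1 and ERR motifs. Atp5po, on the minus strand at chr11:44657434-44657733, holds NRF1 and YY1 motifs. Atp5if1 lies on the minus strand at chr5:150026628-150026927.
Ndufs6: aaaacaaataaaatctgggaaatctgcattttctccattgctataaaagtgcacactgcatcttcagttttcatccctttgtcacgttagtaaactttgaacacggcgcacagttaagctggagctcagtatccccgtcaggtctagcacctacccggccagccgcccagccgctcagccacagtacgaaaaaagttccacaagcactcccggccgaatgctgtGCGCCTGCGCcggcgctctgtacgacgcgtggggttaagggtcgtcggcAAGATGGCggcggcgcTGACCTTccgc
Cox4i1: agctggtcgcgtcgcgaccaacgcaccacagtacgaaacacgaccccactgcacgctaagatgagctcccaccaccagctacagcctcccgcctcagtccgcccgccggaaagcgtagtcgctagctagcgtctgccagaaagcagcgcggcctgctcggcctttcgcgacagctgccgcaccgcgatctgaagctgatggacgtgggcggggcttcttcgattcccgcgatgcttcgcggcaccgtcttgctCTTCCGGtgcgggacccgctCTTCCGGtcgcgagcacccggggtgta
Cox8a: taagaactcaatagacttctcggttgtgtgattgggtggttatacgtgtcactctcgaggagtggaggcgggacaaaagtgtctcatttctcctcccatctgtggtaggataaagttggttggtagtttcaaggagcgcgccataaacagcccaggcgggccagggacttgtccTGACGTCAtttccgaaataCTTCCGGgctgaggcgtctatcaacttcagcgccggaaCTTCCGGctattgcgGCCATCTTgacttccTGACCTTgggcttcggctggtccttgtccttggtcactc
Atp5po: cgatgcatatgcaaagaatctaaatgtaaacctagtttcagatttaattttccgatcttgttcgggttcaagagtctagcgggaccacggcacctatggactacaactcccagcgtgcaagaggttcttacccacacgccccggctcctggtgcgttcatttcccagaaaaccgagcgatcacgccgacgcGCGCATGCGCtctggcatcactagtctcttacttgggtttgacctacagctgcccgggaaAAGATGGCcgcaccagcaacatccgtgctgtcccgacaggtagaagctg
Atp5if1: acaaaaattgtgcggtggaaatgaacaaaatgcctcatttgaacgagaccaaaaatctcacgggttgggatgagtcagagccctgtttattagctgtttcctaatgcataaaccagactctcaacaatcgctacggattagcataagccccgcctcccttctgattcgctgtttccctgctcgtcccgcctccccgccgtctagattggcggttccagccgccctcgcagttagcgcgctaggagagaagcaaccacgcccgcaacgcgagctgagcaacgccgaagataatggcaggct

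The signals were already scaled, with a trimmed mean of 999.8 on all 16 arrays and medians from 223.5 to 267.7. The ratio of 3-prime to 5-prime beta-actin signal, a sign of RNA quality, reached 3.82 and 3.20 on the replicate 4 arrays of the 28-month and 15-month rats, and at most 1.77 on the other arrays. Replicate 2 at 3 months had 18 probe sets over 2 log2 units below all 15 other arrays, against 0 to 6 on any other array, and 4 of the 18 were members, namely Cox7b, Ndufa8, Ndufb6 and Uqcrc2.

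Fat cell transcripts also differed between the arrays. As a fat score, log2 values were averaged over 36 general adipocyte and brown fat markers, none of them a member. Some of the markers, such as Ucp1, Ucp3 and Cpt1b, encode mitochondrial proteins, and Esrra is of the ERR family. The score is therefore no measure of fat apart from mitochondrial genes. The score averaged 11.94 ± 0.50 in 3-month rats, 12.05 ± 0.69 in 6-month rats, 10.96 ± 1.504 in 15-month rats and 10.50 ± 0.58 in 28-month rats (SD, n = 4 each). Ucp1, the uncoupling protein that defines brown fat, had signals of 13223, 18788, 22330 and 4128 at 28 months, against 54670, 55969, 46873 and 34918 at 3 months. The 2 ages did not overlap in Ucp1, which was 1.94 ± 0.75 log2 units (SE) lower at 28 months, with an adjusted p of 0.162 and of 0.0365 with the replicate block, described below. The summed signal of the 24 adipocyte markers tested ran from 49658 to 123527 at 28 months, against 132328 to 322090 at 3 months, and that of the 12 brown fat markers from 12327 to 43625, against 59526 to 125682. All 24 and all 12 had a negative change, with medians of -1.47 and -1.48, and 0 of these genes was listed at 0. In such whole pieces of tissue, fewer cells of a type and less RNA per cell cannot be told apart.

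The members as a group were lower on the arrays of old rats. Each array's median difference from the 3-month mean, taken over the 90 tested members, was 0.21, -0.02, 0.28 and -0.40 at 3 months for replicates 1 to 4, 0.52, 0.50, 0.14 and -0.43 at 6 months, 0.43, 0.13, -0.82 and -0.84 at 15 months, and -0.69, -0.43, -0.53 and -0.87 at 28 months. All 4 arrays at 28 months lay below all 4 arrays at 3 months and at or below the lowest 6-month array. The 15-month arrays split in 2 pairs, with replicates 1 and 2 among the young arrays and replicates 3 and 4 among the 28-month arrays. The same pairs had fat scores of 12.39 and 12.13 (replicates 1 and 2) and of 9.73 and 9.60 (replicates 3 and 4), and they were hybridised on different days, so day, chip lot and tissue content cannot be told apart within that age. By complex, the 28-month arrays lay below all 3-month arrays in complexes I and III, and replicate 4 at 3 months or at 6 months reached into their range in complexes II to V, as the plot of complexes by array shows. In complex IV replicate 2 at 28 months stood at -0.23, against -0.41 on replicate 4 at 3 months.

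**Figure D1:**
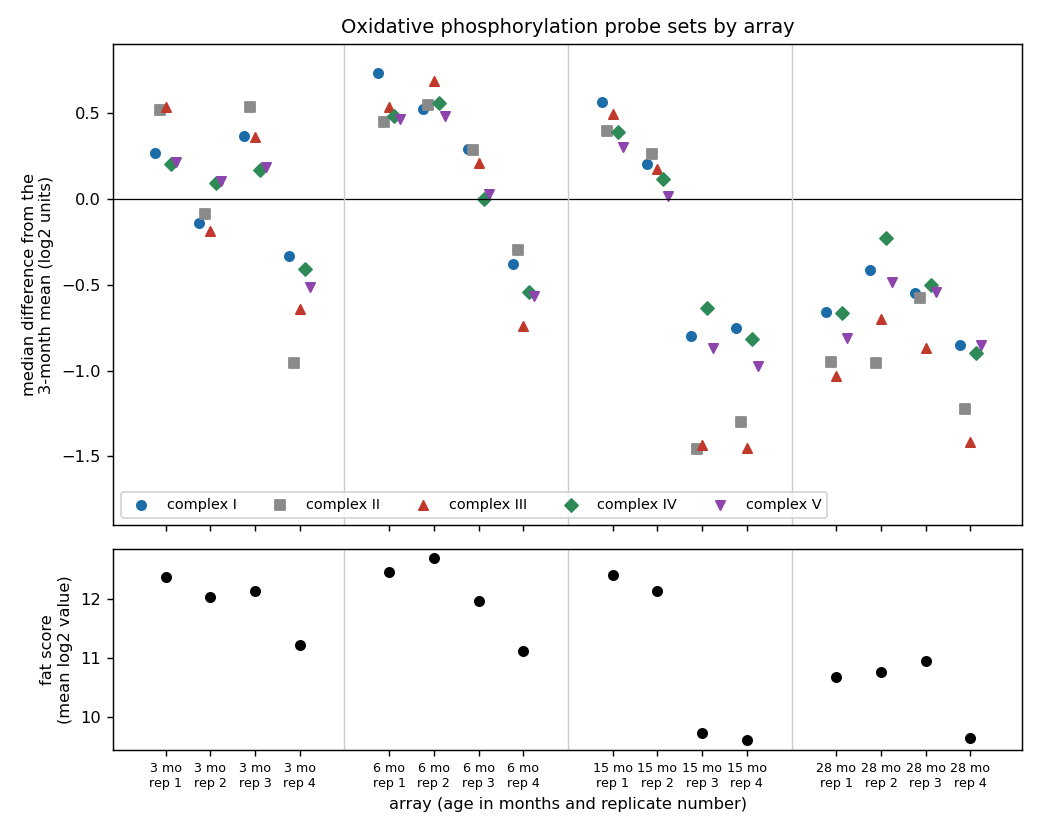
Upper panel, median difference from the 3-month mean in log2 units over the tested probe sets of each complex, by array from 3 to 28 months. Lower panel, the fat score of the same arrays in log2 units. The 28-month arrays and replicates 3 and 4 at 15 months lie below 0 in every complex, and their fat scores lie between 9.60 and 10.94.

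At 28 against 3 months, 74 of the 90 tested members had a negative change and the median was -0.65, against a median of 0.06 over all 5244 probe sets tested. The median was -0.63 in complex I, -0.93 in complex II (1 probe set), -1.07 in complex III, -0.58 in complex IV and -0.73 in complex V. With all 16 arrays and no term for the replicate number, 0 of the 90 members passed an adjusted p of 0.05 (limma with Benjamini-Hochberg adjustment over all probe sets tested), where 1.28% of all probe sets passed. At an unadjusted p under 0.05, 43 members were lower, where 9.82% of all probe sets were lower. All 4 arrays at 28 months lay below all 4 at 3 months for 31 members and above them for 2, both of Atp5if1, against backgrounds of 7.3% and 10.5%. With the replicate number as a block, 30 members passed the test as lower and 1 as higher, against 5.7% lower and 6.56% higher of all probe sets. Counted on the brightest probe set of each of the 53 genes, 15 passed as lower and 1 as higher. Without replicate 2 at 3 months the block gave 37 of the 90 members lower and 0 higher, against 6.2% and 6.79% of all probe sets. Without the 2 arrays of highest beta-actin ratio it gave 19 lower and 1 higher, against 3.53% and 5.23%. Without the 4 arrays with a cRNA note it gave 13 lower and 0 higher, against 3.89% and 3.85%, and a member median of -0.94. Within day 1 the member median at 28 against 3 months was -0.68 and within day 2 it was -0.69.

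At 28 against 6 months, which uses the same 28-month arrays, 83 of the 90 members had a negative change, with a median of -0.84 against 0.13 over all probe sets tested. The medians were -0.98 in complex I, -1.17 in complex II, -1.47 in complex III, -0.68 in complex IV and -0.83 in complex V. Without the block 1 member passed, Ndufab1, where 0.782% of all probe sets passed. With the block 51 members fell and 2, both of Atp5if1, rose, against 8.41% lower and 9% higher of all probe sets. At an unadjusted p under 0.05, 60 members were lower (11.2% of all probe sets). The groups did not overlap for 29 members that were lower (6.62%) and for 2 that were higher (10.8%).

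The other ages gave no member past the threshold without the block. At 6 against 3 months 77 of the 90 members had a positive change, with a median of 0.19, and 0 were called (0% of all probe sets called). With the block 2 members had an unadjusted p under 0.05, against 205 of all 5244 probe sets. The member median in this comparison was 0.47 within day 1 and -0.10 within day 2, where 63 of the 90 were lower. At 15 against 3 months 66 of 90 were lower, with a median of -0.30, and 0 were called by limma (0.0953% of all). Members at an unadjusted p under 0.05 numbered 3 without the block and 11 with it, against 372 and 695 of all 5244 probe sets. The 15-month median was 0.21 within day 1 and -0.80 within day 2. At 28 against 15 months 82 of 90 were lower, with a median of -0.40, and 0 were called (0% of all). Here 2 members had an unadjusted p under 0.05 without the block and 12 with it, against 185 and 331 of all 5244 probe sets. The member median in this comparison was -0.93 within day 1 and 0.10 within day 2. In the F test over the 4 ages 0 members passed without the block (0.648% of all) and 14 with it (5.97% of all), 7 of complex I, 2 of complex III, 1 of complex IV, 3 of complex V and Ndufa4l2.

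**Figure D2:**
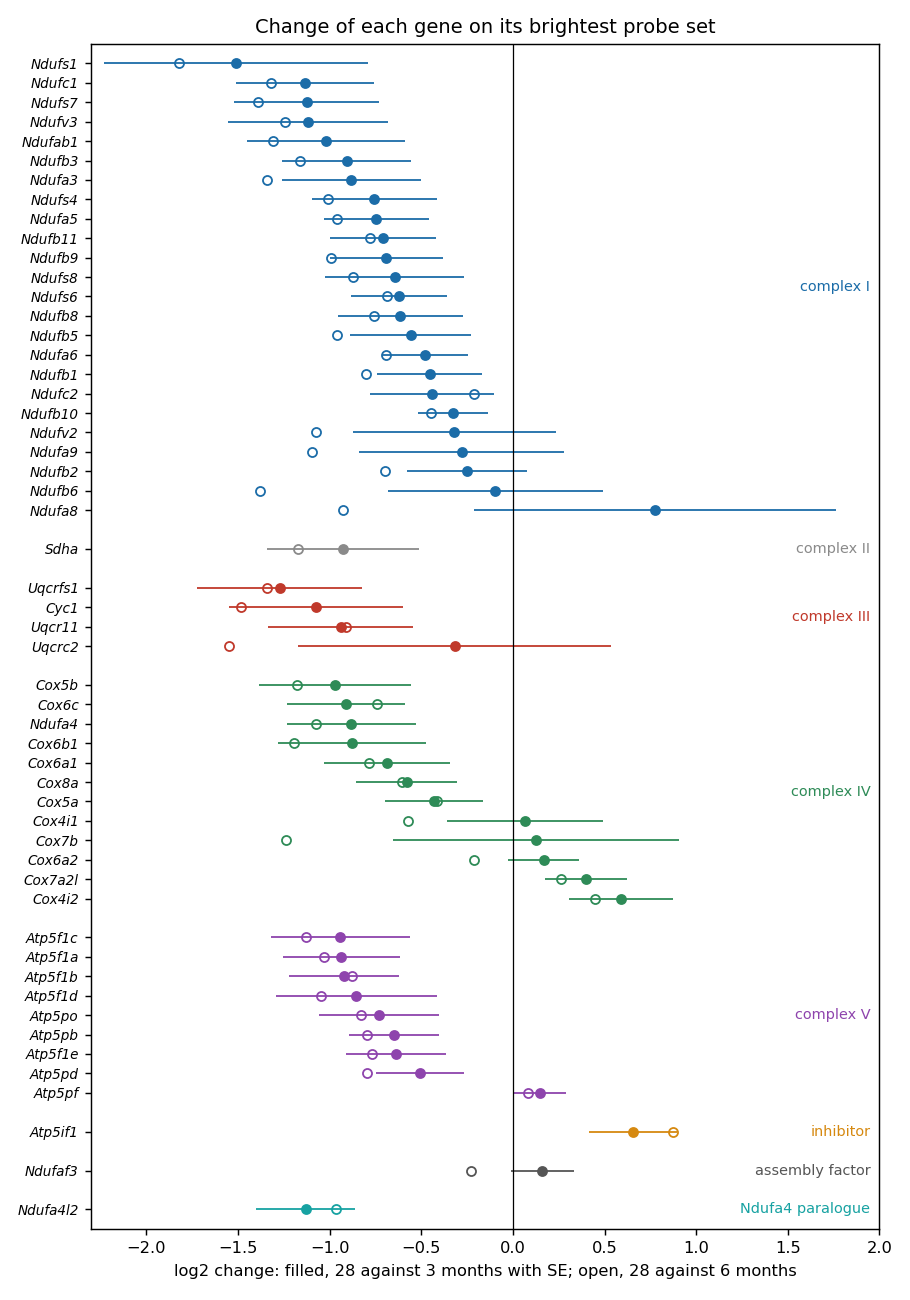
Log2 change of each of the 53 tested genes on its brightest probe set, by complex. Filled points with bars (SE) are 28 against 3 months and open points are 28 against 6 months. Most genes of complexes I, III and V lie left of 0, and Atp5if1, Atp5pf, Cox4i2 and Cox7a2l lie right of it in both comparisons.

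Complex I oxidises NADH on an arm that reaches into the matrix and pumps protons through an arm in the inner membrane. Of its 36 tested probe sets, 33 were lower at 28 than at 3 months and 36 of 36 at 28 than at 6 months. With the block 10 fell in the first comparison and 19 in the second, and 0 rose in either.

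Among the iron-sulfur and NADH-binding chains of the matrix arm, Ndufs1, the largest iron-sulfur subunit, had values of 8.17, 8.37, 8.28 and 5.91 at 28 months, against 10.08, 8.68, 9.65 and 8.37 at 3 months. Its replicate 4 at 28 months lay far below the others, and the lowest 3-month array met the highest 28-month array at 8.37. The change was -1.51 ± 0.72 (SE), with an adjusted p of 0.228, and of 0.0357 with the block. Without replicate 4 at 28 months it was -0.92. Ndufs7, the subunit with the iron-sulfur cluster next to the ubiquinone site, had 12.004, 12.27, 10.95 and 11.83 at 28 months, against 12.98, 12.96, 13.13 and 12.48 at 3 months. The ages did not overlap, and with the block Ndufs7 fell (-1.12 ± 0.40, 2.18-fold lower, adjusted p 0.146 without the block and 0.0266 with it). Ndufv3, a small subunit of the NADH-binding module, was lower on both of its probe sets, by -1.20 and -1.12, and both fell with the block. Ndufv2, an iron-sulfur subunit of that module, was -0.32 ± 0.55 and did not pass in either comparison. Ndufs8, another iron-sulfur subunit, fell with the block on AA685112_at (-0.80), and its other probe sets, at -0.65 and -0.39, did not pass.

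Ndufab1, the acyl carrier protein of mitochondria, which also serves fatty acid and iron-sulfur cluster synthesis, was the single member past the threshold without the block. Its probe set AA799336_at had 10.66, 10.89, 11.89 and 10.71 at 3 months, 12.05, 11.60, 11.82 and 11.13 at 6 months, 11.67, 10.78, 10.37 and 10.53 at 15 months, and 9.95, 9.99, 10.50 and 10.17 at 28 months. All 28-month arrays lay below all arrays at 3 and at 6 months, and the 15-month arrays spanned the gap. The change was -1.498 ± 0.31 (SE) at 28 against 6 months, 2.83-fold lower, with an adjusted p of 0.0362, and -0.89 ± 0.31 at 28 against 3 months, with an adjusted p of 0.147. Its brighter probe set rc_AA891651_g_at was -1.31 and -1.02 in the same comparisons and fell at 28 against 6 months with the block (adjusted p 0.0229). The call was lost when replicate 2 at 3 months, replicate 2 at 15 months, any 1 of replicates 1 to 3 at 6 months or any 1 array at 28 months was left out, with adjusted p-values up to 0.137.

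Ndufc1 of the membrane arm had 11.38, 10.99, 11.72 and 11.33 at 28 months, against 12.74, 12.36, 12.86 and 11.995 at 3 months, with no overlap, and fell with the block (-1.13 ± 0.38, adjusted p 0.0356). Ndufa3 (-0.88), Ndufa5 (-0.75), Ndufb5 (-1.10 on AA684537_at) and Ndufb6 (-0.85 on rc_AI104528_at) fell in the same fit. Ndufb3, Ndufb9, Ndufs4 and 1 probe set each of Ndufa6 and Ndufb8 fell with the block at 28 against 6 months and did not pass at 28 against 3 months, and the difference between the comparisons was not tested. Ndufs6 (-0.62), Ndufb11 (-0.71), Ndufb1 (-0.46), Ndufb10 (-0.33), Ndufc2 (-0.44), Ndufa9 (-0.28) and Ndufb2 (-0.25) did not pass in either. The 1 large positive value, Ndufa8 at 0.78 ± 0.99, rested on replicate 2 at 3 months, where it read 6.34 against 11.75 to 12.65 on the other 3-month arrays. Without that array Ndufa8 was -0.71, Ndufb6 on its brighter probe set was -0.89 in place of -0.10, and 35 of the 36 probe sets of complex I were lower, with a median of -0.78.

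Sdha, the flavoprotein of succinate dehydrogenase (complex II), is an enzyme of the citric acid cycle as well. It had 13.59, 12.99, 13.61 and 12.12 at 3 months, 13.52, 13.62, 13.36 and 12.78 at 6 months, 13.47, 13.34, 11.62 and 11.78 at 15 months, and 12.13, 12.12, 12.50 and 11.85 at 28 months. The 28-month arrays lay below all 6-month arrays and below 3 of the 3-month arrays. It fell at 28 against 6 months with the block (-1.17 ± 0.42, adjusted p 0.108 without the block and 0.0284 with it) and was -0.93 ± 0.42 at 28 against 3 months (0.206 and 0.0762).

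Complex III passes electrons from ubiquinol to cytochrome c. All 7 of its probe sets were lower at 28 than at 3 and than at 6 months, and with the block 4 and 6 of them fell. Uqcrfs1, the Rieske iron-sulfur protein, had on its brightest probe set 14.89, 14.73, 14.82 and 13.96 at 3 months, 14.97, 15.21, 14.70 and 13.78 at 6 months, 14.96, 14.74, 13.01 and 12.84 at 15 months, and 13.35, 13.78, 13.41 and 12.75 at 28 months. All 28-month arrays lay below all 3-month arrays, and the highest of them met the lowest 6-month array. All 3 probe sets of Uqcrfs1 fell with the block at 28 against 3 months, by -1.41, -1.27 and -1.22 log2 units, or 2.66-, 2.42- and 2.33-fold. Cyc1, cytochrome c1, had 12.54, 13.10, 12.76 and 12.32 at 28 months, against 14.29, 13.34, 14.28 and 13.12 at 3 months. These did not overlap, and its change was -1.07 ± 0.48 (adjusted p 0.202, and 0.0666 with the block). Cyc1 fell at 28 against 6 months with the block (-1.48, adjusted p 0.0194). Uqcr11, a small subunit, was -0.94 and -0.67 on its probe sets, and the brighter one fell with the block. Uqcrc2, a core protein, was -0.32 ± 0.85 with a reading of 9.71 on replicate 2 at 3 months, and -1.34 without that array.

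Complex IV, cytochrome c oxidase, has subunits with tissue isoforms, and its probe sets were the most mixed in sign, with 16 of 24 lower at 28 than at 3 months and 22 of 24 at 28 than at 6 months. With the block 9 fell in the first comparison, 14 in the second and 0 rose. Cox5b, a subunit of the matrix side, had 13.36, 13.94, 13.22 and 13.11 at 28 months, against 14.57, 14.60, 14.67 and 13.67 at 3 months on its brightest probe set. The ages overlapped in 1 array of each, and both probe sets of Cox5b fell with the block (-0.97 and -0.91). Cox6a1, the widely expressed isoform of its pair, fell with the block on X72757_g_at (-0.77) and was -1.005 and -0.69 on its other probe sets. Cox6a2, the isoform of heart and skeletal muscle, was 0.17 ± 0.19 on its brightest probe set and 0.02 on the other one tested.

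Cox8a was measured by 4 probe sets. On L48209_s_at it had 14.64, 14.64, 14.41 and 14.01 at 3 months, 14.86, 15.08, 14.39 and 13.62 at 6 months, 14.60, 14.59, 13.79 and 13.63 at 15 months, and 13.59, 13.97, 13.84 and 13.49 at 28 months. The 28-month arrays lay below all 3-month arrays and overlapped replicate 4 at 6 months. All 4 probe sets were lower, by values from -0.70 to -0.56, and 3 of them fell with the block at 28 against 3 months. Cox6b1 (-0.95 and -0.88) and Ndufa4 (-0.88), a chain first assigned to complex I, did not overlap between 28 and 3 months and fell with the block at 28 against 6 months. Cox5a was -0.43 ± 0.27 and did not pass. Cox6c fell with the block on M27466_at (-0.91) and was 0.18 on M27467_at, and Cox7b was 0.12 ± 0.78 with replicate 2 at 3 months and -0.99 without it.

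Cox4i1, the common isoform of the largest nuclear subunit, was lower on 2 probe sets (-0.66 and -0.56, both past the test with the block, the first of them -0.42 without replicate 4 at 28 months) and 0.07 ± 0.43 on its brightest, where replicate 2 at 3 months read 13.87 against 15.48 to 16.36 on the other 3-month arrays. Without that array the brightest probe set was -0.47. Cox4i2, the isoform known from lung and from low oxygen, had 10.96, 10.67, 9.55 and 10.51 at 3 months, 10.61, 10.39, 10.40 and 10.86 at 6 months, 10.92, 10.83, 10.44 and 11.49 at 15 months, and 11.13, 10.55, 11.16 and 11.21 at 28 months. The ages overlapped, and the change of 0.59 ± 0.29 at 28 against 3 months did not pass (adjusted p 0.233, and 0.117 with the block). The log2 difference Cox4i2 minus Cox4i1, taken per array and meaningful only as a change between ages, was 0.52 higher at 28 than at 3 months (exact permutation p = 0.571), with 1.14 when replicate 2 and -0.02 when replicate 3 at 3 months was left out. It was 1.02 higher at 28 than at 6 months (exact permutation p = 0.0571, 0.0762 adjusted over the 4 tests of this kind). These permutations took the arrays as unpaired and did not use the replicate number. Cox7a2l, which helps join complexes III and IV, was 0.40 ± 0.22 and 0.01 on its probe sets and did not pass.

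Complex V makes ATP in a catalytic head that is held by a peripheral stalk. Of its 13 probe sets 11 were lower at 28 than at 3 months and 11 at 28 than at 6 months, and with the block 6 and 10 fell. The catalytic subunit Atp5f1b had 14.95, 14.94, 14.82 and 14.16 at 3 months, 14.85, 15.07, 14.61 and 14.15 at 6 months, 14.81, 14.70, 13.58 and 13.56 at 15 months, and 13.67, 13.80, 14.12 and 13.59 at 28 months. All 28-month arrays lay below all 3-month and all 6-month arrays. Atp5f1b fell with the block by -0.92 ± 0.30 at 28 against 3 months, 1.89-fold (adjusted p 0.120 without the block and 0.0245 with it).

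Atp5f1a, the partner of Atp5f1b in the ring of the head, had 12.05, 12.14, 12.45 and 11.92 at 28 months, against 13.31, 12.98, 13.38 and 12.64 at 3 months, with no overlap, and fell with the block (-0.94 ± 0.32). Atp5f1c (-0.94), the central shaft, and Atp5f1d (-0.86 and -0.80) fell in the same fit, and Atp5f1e (-0.64 and -0.56) fell on 1 probe set at 28 against 6 months. In the peripheral stalk, Atp5po, the chain that confers sensitivity to oligomycin, fell on D13127_at (-1.002) and Atp5pb (-0.65) and Atp5pd (-0.51) fell at 28 against 6 months. Atp5pf, coupling factor 6 of the same stalk, was 0.15 ± 0.14 and 0.31 ± 0.18. Its arrays on X54510_at spanned 12.32 to 12.47 at 28 months, against 12.04 to 12.42 at 3 months, and neither probe set passed in any comparison.

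Atp5if1 binds the ATP synthase and inhibits its reverse reaction when the proton gradient is low. On D13122_f_at it had 9.97, 9.99, 10.18 and 10.53 at 3 months, 9.84, 9.75, 9.70 and 10.49 at 6 months, 9.91, 10.02, 10.90 and 10.70 at 15 months, and 10.62, 10.96, 10.82 and 10.89 at 28 months. All 28-month arrays lay above all 3-month and all 6-month arrays, and at 15 months replicates 3 and 4 were the high ones. The change was 0.65 ± 0.24 at 28 against 3 months, 1.57-fold (adjusted p 0.159, and 0.0458 with the block), and 0.87 ± 0.24 at 28 against 6 months, 1.83-fold (0.0784, and 0.0160 with the block). On rc_AA891873_f_at it was 0.63 and 0.75 higher, again with no overlap of arrays, and passed with the block at 28 against 6 months (adjusted p 0.0348). Its 2 untested probe sets had means below the filter. The names of both tested probe sets end in _f_at, a mark of probes shared with similar sequences, so related sequences may share in the signal.

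The log2 difference Atp5if1 minus Atp5f1b, read again as a change between ages, was 1.58 higher at 28 than at 3 months and 1.75 higher than at 6 months. Each had an exact permutation p of 0.0286 (2-sided), the smallest that 4 against 4 arrays allow, and 0.0571 adjusted over the 4 tests. The pair was chosen with the directions of both genes known. All 28-month arrays lay above all 3-month and 6-month arrays for Atp5if1, and below them for Atp5f1b. The permutation p therefore followed from those values and adds no support. The permutations again took the arrays as unpaired.

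**Figure D3:**
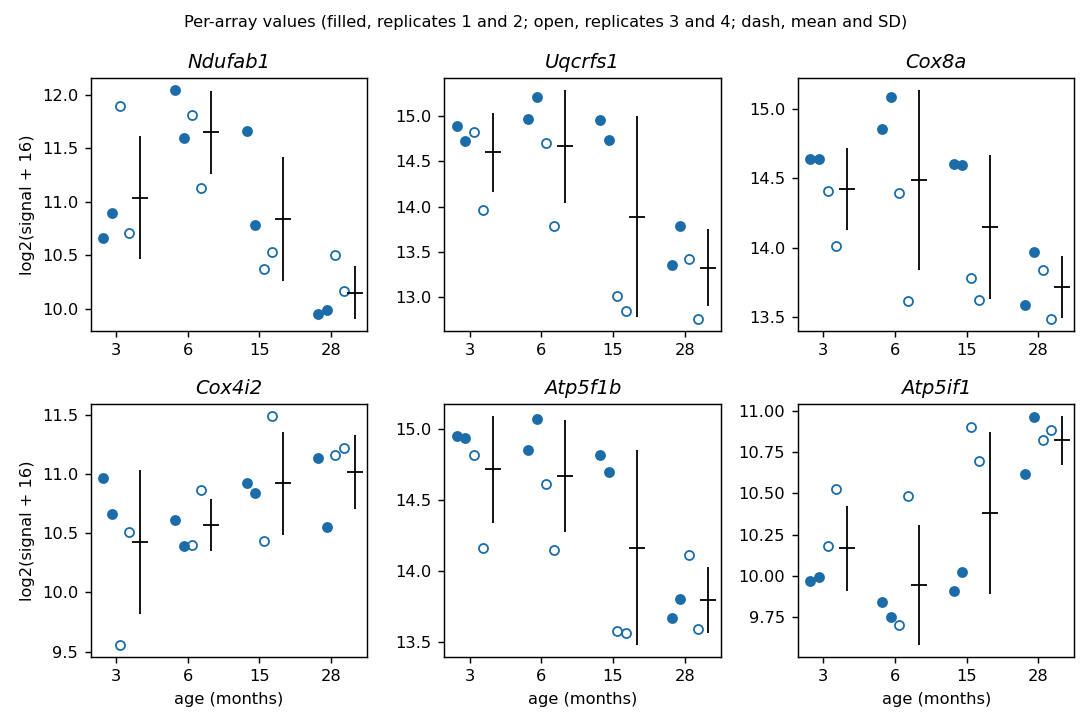
Log2(signal + 16) of 6 members on each array by age in months, on AA799336_at for Ndufab1, M24542cds_g_at for Uqcrfs1, L48209_s_at for Cox8a and D13122_f_at for Atp5if1. Filled points are replicates 1 and 2, open points replicates 3 and 4, and the dash with its bar is the mean and SD of 4 arrays. Atp5f1b has its lowest and Atp5if1 its highest mean at 28 months, and at 15 months the arrays of both split by replicate and reach into the 28-month range.

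The remaining members were an assembly factor and a paralogue. Ndufaf3 was 0.16 ± 0.17 on its brightest probe set, -0.05 and -0.35 on the others, and did not pass. Ndufa4l2, known in human cells as a gene induced by low oxygen that lowers complex I activity, had on its brightest probe set 8.60, 8.09, 9.34 and 8.19 at 28 months, against 9.66, 9.77, 9.70 and 9.62 at 3 months. The ages did not overlap, and the change of -1.13 ± 0.27 had an adjusted p of 0.0532, and of 0.0163 with the block. Its other probe sets were -1.07, -0.96 and -0.04, so they disagree in size, and all but 1 have names ending in _f_at. Probe sets of opposite sign at 28 against 3 months were found for Cox4i1, Cox6c, Ndufb8 and Ndufaf3.

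The members' values followed the fat score. In a fit with the 4 ages and the score together, the coefficient of the score was positive for 79 of the 90 members, with a median of 0.46 log2 units per unit of score, against -0.08 over all probe sets tested. It passed the test as positive for 65 members and as negative for 4, against 15.1% and 22.2% of all probe sets. It was positive for all 36 probe sets of complex I, 29 of them past the test, and for all 7 of complex III, all past the test. The highest was that of Ndufs1, 1.17, and the lowest those of Atp5if1, -0.32 and -0.31, both past the test. With the score in the fit, the member median at 28 against 3 months was -0.01, with 46 of 90 lower, and 0 members passed. At 28 against 6 months it was -0.14, with 68 of 90 lower and 0 past the test. Ndufs1 was 0.18, Uqcrfs1 -0.18 on its brightest probe set, Atp5f1b -0.24, Cox4i2 0.47, Atp5if1 0.19 and Ndufa4l2 -0.70 in this fit. The score itself differed between the ages, so the fit cannot tell a difference in age from one in fat transcripts where both move together. The score also holds markers that encode mitochondrial proteins, and their part in these values was not tested.

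**Figure D4:**
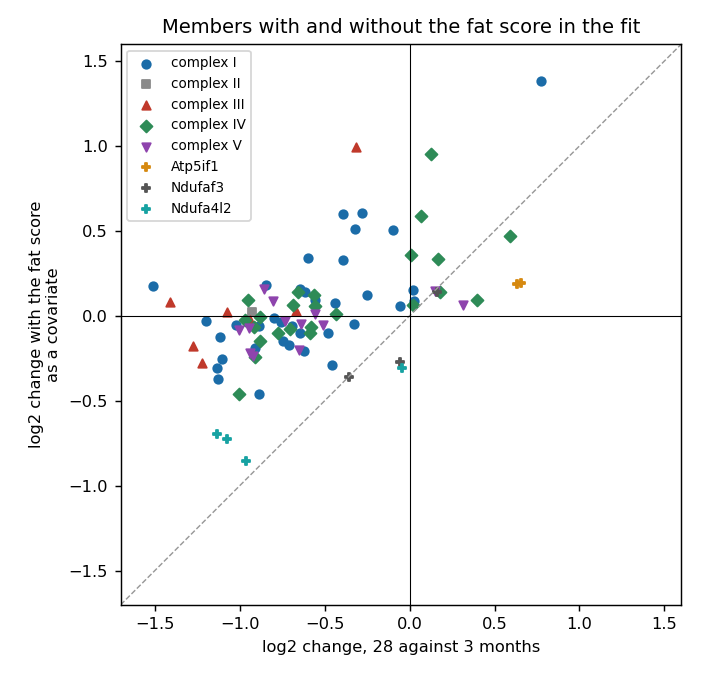
Log2 change of each of the 90 tested members at 28 against 3 months, without (horizontal axis) and with (vertical axis) the fat score in the fit. The dashed line marks equal values. Most members lie above the line and near 0 on the vertical axis, with a median of -0.01, against -0.65 on the horizontal axis.

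Other lists of mitochondrial and fuel genes, none of them members, were set beside the members with 1 probe set per gene. Of the pyruvate dehydrogenase and citric acid cycle genes, 10 of 10 tested were lower at 28 than at 3 months, with a median of -1.18, and 8 fell with the block and 0 without it. Pdha1 and Dlat, chains of the pyruvate dehydrogenase complex, were -1.11 and -1.77 and fell with the block. Of the fatty acid oxidation genes, 16 of 17 were lower, with a median of -1.17, and with the block 11 fell, among them Acadl (-1.29), an acyl-CoA dehydrogenase, and 1, Cpt1a (1.03), the liver isoform of the carnitine transferase, rose. Of the glycolytic enzymes, 10 of 12 were lower, with a median of -0.81, and Pfkp, a phosphofructokinase chain, fell without the block (-1.28 ± 0.24, adjusted p 0.0143), as 1 of the adipocyte markers did, the glucose transporter Slc2a4 (-1.14 ± 0.23, adjusted p 0.0205). The medians were -0.64 for 10 mitochondrial antioxidants and chaperones, 9 of them lower and 3 past the test with the block, -0.35 for 9 mitochondrial carriers and pores, 8 of them lower and 2 past it, and -0.35 for 4 regulators of mitochondrial biogenesis, 3 of them lower and 0 past it. With the fat score in the fit the medians were -0.24 for the citric acid cycle genes, 0.09 for fatty acid oxidation and -0.21 for glycolysis.

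Smooth muscle markers went the other way, and markers of other cell types were mixed or mostly lower. All 10 smooth muscle markers tested had a positive change at 28 against 3 months, with a median of 0.58 and 0 past the test with or without the block. With the fat score in the fit their median was -0.03. Their summed signal ran from 261819 to 328419 at 28 months, against 172492 to 299370 at 3 months. Of 9 fibroblast markers 6 were higher, with a median over the 9 of 0.07, and of -0.14 with the fat score in the fit. The 2 past the test without the block were S100a4 (1.64) and the fibronectin gene Fn1 (1.58). Of 7 striated and cardiac muscle markers tested 5 were lower, with a median of -0.05, of 4 endothelial markers 2 were lower, with a median of -0.46, and of 6 macrophage markers 3 were lower, with a median of -0.04. Of 6 red blood cell markers 5 were lower, with a median of -0.51, and of 6 nerve and Schwann cell markers 4 were lower, with a median of -0.10, and Uchl1, a ubiquitin hydrolase of neurons, rose without the block (1.80 ± 0.33, adjusted p 0.0143). The part of these cell types in the members' values was not tested.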

How the data were processed

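Gene expression was measured on Affymetrix rat arrays in 16 rats. The authors deposited 1 table of intensity values, 1 linear signal per probe set and array, made with MAS5 per the submitters' processing notes (in a version the sources used here do not name). The number of arrays limits the precision, and p-values measure the spread between separate rats. The deposited array records gave hybridisation day, chip lot and station. The members and gene lists were chosen with earlier results of these data known.

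Values were analysed as log2(signal + 16), which understates changes of dim probe sets. Control probe sets (59) and those with a mean below the 40th percentile of the rest were left out, which left 5244. The filter used the mean over all arrays. The platform annotation gave 1 symbol to 7006 probe sets, several to 308 and none to 1426. It can be old, and all 99 members had a gene identifier in the RefSeq table. One limma 3.58.1 model in R 4.3.3 took in all arrays (lmFit, eBayes with a mean trend; a mean for each age, 12 residual degrees of freedom), and 2-sided p-values were adjusted by Benjamini-Hochberg over the 5244. The script was tested on simulated data.

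In those records the 4 arrays of a replicate number shared day, lot and station, so the number marks a shared batch and pairs the arrays. Over the 24 same-number pairs deviations from the age means correlated with a median of 0.172 (-0.315 to 0.629, 13 over 0.1), against -0.034 between different numbers. The fit without the block is the main one, and the value with the replicate block stands beside it. Named genes were the 2 largest falls and the largest rise per complex, members past a test in either fit, the main tissue isoforms and core chains, genes whose probe sets disagree, and up to 2 genes of each other list.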

Additional observations from a re-analysis of the deposited data

Results flagged for a closer look

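Each member probe set was looked at in each age for 1 array far from the other 3, by the gap to its nearest neighbour over the range of the 4. Of 360 such groups 23 stood out, 19 with a low and 4 with a high array, and chance alone gives about 1 in 20 groups (5%).

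On replicate 4 at 3 months, which had the lowest fat score of its age (11.22), 7 probe sets were low. Ndufb6 on rc_AI104528_at read 11.62 against 12.34 to 12.40 on the other arrays, and Cox5b on rc_AI229620_s_at read 13.67 against 14.57 to 14.67. Atp5f1b read 14.16 against 14.82 to 14.95. Atp5f1e read 12.98 against 13.62 to 13.69 and 13.83 against 14.46 to 14.56 on its 2 probe sets, and Atp5po read 13.18 against 13.90 to 14.04 and 13.87 against 14.56 to 14.70. The median of complex V on this array was -0.51, against 0.10 to 0.22 on the others.

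On replicate 4 at 6 months, again with the lowest fat score of its age (11.12), 4 probe sets were low. Ndufa3 read 12.35 against 13.65 to 13.78, Ndufa5 12.40 against 13.13 to 13.24, Ndufb6 on rc_AA900199_s_at 12.62 against 13.46 to 13.53, and Ndufs4 on rc_AI013297_at 10.31 against 11.09 to 11.22. On the same array the median of the inhibitor Atp5if1 was high, at 0.28 against -0.35 to -0.28 on the others.

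Replicate 4 at 28 months had the highest beta-actin ratio (3.82), the lowest fat score of its age (9.64) and a cRNA note. On this array Ndufs1 read 5.91 against 8.17 to 8.37 and Uqcrfs1 on M24542cds_at 10.43 against 12.10 to 12.21. On replicate 2 at 3 months Ndufa8 read 6.34 against 11.75 to 12.65, Ndufb8 on rc_AA851403_at 7.76 against 9.81 to 10.19, and Cox6a2 on rc_AI171644_s_at was high at 8.74 against 7.08 to 7.16. At 28 months replicate 2 was high for Ndufs8 on rc_AA799479_g_at (12.92 against 12.32 to 12.42) and for Cox8a on rc_AI102505_g_at (15.42 against 14.92 to 14.95), and low for Cox4i2 (10.55 against 11.13 to 11.21). Ndufs6 was low on replicate 1 at 28 months (11.86 against 12.59 to 12.74). At 15 months replicate 1 was high for Cox6a2 on X12554cds_s_at (10.003 against 9.15 to 9.27) and low for Cox6c on M27467_at (9.89 against 10.32 to 10.35), and at 6 months replicate 3 was low for Ndufaf3 on U95161_s_at (9.98 against 10.22 to 10.25). What these arrays have in common with their low or high values was not tested.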

How the results depend on the processing

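The number of members past the threshold changed much with the setting, and so did the share of all probe sets, given here in brackets. At 28 against 3 months it was 0 in the fit without the block (1.28%), and 1 with a filter at the 60th percentile (1.74%), 28 with only the 8 arrays of these ages (10.2%), 36 with array weights (14.4%), 31 with the replicate block (12.3%), 13 with hybridisation day (8.87%) and 5 with chip lot (6.14%) as a term, and 36 within day 1 (13.3%). Among settings chosen after seeing the data it was 8 without the 15-month arrays (7.17%), and with the block it was 37 with no second 3-month array (13%), 20 with no arrays of high beta-actin ratio (8.75%) and 13 with no arrays with a cRNA note (7.74%). At 28 against 6 months it was 1 without the block (0.782%), and 37 with only the 8 arrays of these ages (11.4%) or without the 15-month arrays (12.6%), 65 with array weights (28.2%), 53 with the replicate block (17.4%), 51 with day (16%), 45 with lot (13.7%) and 61 within day 1 (24%). It was 0 with the fat score, with the score and the block (0.0763%), and without the arrays of high beta-actin ratio, and with the block it was 61 with no second 3-month array (18.3%), 52 with no high-ratio arrays (15.6%) and 40 with no cRNA note (13.3%). At 28 against 15 months it was 42 within day 1 (9.8%). Over the 4 ages it was 39 with array weights (13.9%), 14 with the replicate block (5.97%), 1 with day (2.77%), 45 within day 1 (13.9%) and 25 with the block and no second 3-month array (8.43%). Within day 2 limma called 0 members and 0% of all probe sets in each comparison. There 33 members had an unadjusted p under 0.05 at 28 against 3 months, against 637 of all 5244 probe sets. At 28 against 6 months it was 19 members, against 490 of all probe sets. Leaving out 1 array in turn gave 0 to 1 members at 28 against 3 months, 0 to 44 at 28 against 6 months, with 44 when replicate 4 at 6 months and 15 when replicate 1 at 15 months was left out, and 0 to 2 over the 4 ages. The block changed no call at 6 against 3, 15 against 3 or 28 against 15 months. The cause of these differences was not tested.

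Adding the fat score as a covariate, the median change at 28 against 3 months was -0.0082 over the members, -0.022 in complex I, 0.0237 in complex II, 0.022 in complex III, 0.0595 in complex IV and -0.0483 in complex V. With the score and the block it was -0.0581, 0.0397, 0.1485, -0.0412, -0.1072 and -0.1031 in the same order. With the block and no second 3-month array complex I stood at -0.9144, and with the block and no cRNA note the members stood at -0.9434 and complex V at -1.1048. Leaving out any 1 array kept the member median between -0.80 and -0.57.

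Single genes on their brightest probe set turned sign as follows at 28 against 3 months. With the fat score they were Cox6a1 (0.0634), Ndufb8 (0.1427), Cyc1 (0.022), Ndufb2 (0.1251), Uqcrc2 (0.9914), Ndufs8 (0.1605), Ndufv2 (0.5117), Sdha (0.0237), Ndufb6 (0.5049), Atp5f1d (0.1554), Ndufb5 (0.0962), Ndufc2 (0.0783), Ndufa9 (0.6074), Cox5a (0.0109) and Ndufs1 (0.175). With the score and the block they were Atp5pd (0.0213), Cyc1 (0.1018), Ndufb9 (0.0339), Ndufb2 (0.3017), Uqcrc2 (1.766), Ndufab1 (0.0583), Ndufs8 (0.1055), Ndufs6 (0.0454), Ndufa4 (0.0044), Ndufv2 (0.6418), Ndufb3 (0.0713), Sdha (0.1485), Ndufb6 (1.2865), Ndufa6 (0.014), Ndufb5 (0.1203), Ndufb10 (0.151), Ndufs4 (0.0681), Ndufa9 (1.1939) and Ndufaf3 (-0.034). Within day 1 they were Ndufb2 (0.1481), Uqcrc2 (0.701), Ndufv2 (0.3013), Ndufb6 (0.838) and Ndufa9 (0.3913), and within day 2 Cox4i1 (-0.3336), Cox7b (-1.0307), Ndufa8 (-1.0697) and Ndufaf3 (-0.214). Cox4i1 was -0.0257 with array weights, and with the block it was -0.5752 with no second 3-month array and -0.0182 with no high-ratio arrays. In the fit with the block and no second 3-month array Cox7b (-1.1477) and Ndufa8 (-0.9213) fell. With the block and no cRNA note Ndufb6 was 0.1038 and Cox6a2 -0.0145. Leaving out 1 array gave ranges across 0 for Cox4i1 (-0.4733 to 0.3574), Cox7b (-0.9875 to 0.6264), Uqcrc2 (-1.3444 to 0.2197), Ndufv2 (-0.942 to 0.119), Ndufb6 (-0.8891 to 0.4112), Ndufa8 (-0.709 to 1.3946) and Ndufa9 (-0.8914 to 0.0252), where replicate 2 at 3 months set the negative end.

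The members are nuclear genes on an array without mitochondrial chains, cytochrome c has no value of its own, and transcript levels are no measure of protein or respiration. Dim probe sets such as AA685376_f_at of Ndufa4l2 (mean 7.59) and rc_AI171644_s_at of Cox6a2 (7.72) rest on signals near the filter limit of 7.31. Ndufs1 had a mean of 8.72 but read 5.91 on replicate 4 at 28 months, and the brightest probe set of Ndufa4l2 had a mean of 9.24. Day and chip lot overlap, and the replicate number holds both. Both stations were used on each day, and station was not a term of its own in any fit. The fat score follows the ages. The terms in these fits therefore share their information.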
